A study of Mus musculus with 24 samples.

Results

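Derlin-1 knockout (KO) and control cerebellum were compared in mice that had not received 4-phenylbutyrate (4PBA), a chemical chaperone that other groups of the series received. The samples were chosen by their titles, and 8 of the 24 arrays of the series entered the comparison. Controls carried floxed Derl1 alleles and no Cre recombinase is named for them. KO mice carried the same floxed alleles and Cre under the nestin promoter, which is active in the precursors of neurons, astrocytes and oligodendrocytes but not in microglia, so an effect of Cre itself and an effect of the deletion cannot be told apart. All were C57BL/6 mice whose cerebellum was taken on day 28 after birth. A numbered series held control arrays 1 and 2 and KO arrays 1 and 2, from mice injected with water as vehicle from day 14 to day 28. A lettered series held control arrays a and b and KO arrays a and b, whose titles name no agent. The comparison asks which cerebellar transcripts differ between mice of these genotypes.

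Derlin-1 is a membrane protein of the endoplasmic reticulum (ER) and helps to move misfolded proteins out of that compartment for degradation. Misfolded protein in the ER starts the unfolded protein response, in which the sensors PERK, IRE1 and ATF6 raise chaperones and slow translation. PERK shares its output, the integrated stress response (ISR), with sensors of amino acid shortage and viral RNA: phosphorylated eIF2 lowers general translation but favours the transcription factor ATF4, which with its partners acts on genes of amino acid uptake, amino acid synthesis and tRNA charging. Microglia, the resident macrophages of the brain, respond to stressed or dying neurons, and interferons induce a set of antiviral genes in many cell types.

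Each array was scanned in 1 colour, and a level is the log2 intensity of a gene's probe minus the 75th percentile of its array. A change is the KO mean minus the control mean within a series, averaged over both series, and it was tested with limma across 16935 genes. A gene was called at a Benjamini-Hochberg adjusted p under 0.05. The scanner software placed 63.5% to 68.4% of the spots of these 8 arrays well above background, and 15431 genes were well above background on all 8. KO array a had the highest 75th percentile of the 8, 1169 against 945 to 1077 on the others, and the highest share of spots above background. Arrays of both series lay on a slide of their own, with controls in columns 1 and 2 and KO arrays in columns 3 and 4, so slide position and genotype cannot be told apart. Nothing in the labels says that replicates came from separate animals, so p-values measure the spread between these samples. Defining transcripts of the tissue were bright on all 8 arrays: Pcp2 of Purkinje cells at 7.56 to 7.99, Gabra6 of granule neurons at 3.54 to 4.68, Mbp of myelin at 3.34 to 4.71 and Slc1a3 of Bergmann glia at 4.48 to 5.03.

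The targeted gene was read first. Derl1 had 0.89, 0.94, 1.22 and 0.84 on control arrays 1, 2, a and b and 0.89, 0.70, 0.14 and 0.84 on KO arrays 1, 2, a and b. The groups overlapped, and the change of -0.33 (SE 0.15, adjusted p 0.178) was not called. Without KO array b it was -0.50 and was called, and without KO array a it was -0.15 and was not called. Where this probe lies relative to the deleted part was not determined, so its level does not check the labels. Derl2 had a change of 0.01 (SE 0.20, adjusted p 0.986). Among the 5 tested genes on each side of Derl1 in the reference gene order, Mtbp rose by 0.69 (SE 0.14, adjusted p 0.009) on its brightest probe, while its other probe read 0.14 and the mean of both was not called (0.41), and the other 9 had changes from -0.35 to 0.23 that were not called.

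KO cerebellum differed from control cerebellum in 1800 of the 16935 genes, 890 higher and 910 lower. The share called was 10.6% of all genes tested, 5.26% higher and 5.37% lower, and these shares are the background for each count below. The gene lists were chosen with earlier results of these data known, so their counts describe the members and do not test them. The median of all changes was -0.01. Rises were larger than falls: the called rises had a median of 0.60 and the called falls one of -0.41, and of the 316 genes that changed at least 2-fold 245 rose and 71 fell. The 26 genes of the unfolded protein response list and the 23 of the cholesterol biosynthesis list held 38 of the calls, so 1762 called genes, 867 higher and 895 lower, lay outside both. Scaling by the median of each array instead of the 75th percentile moved the median of all genes to -0.13 and gave 364 genes higher and 915 lower. A fit of the 8 arrays alone with 4 group means gave 726 calls. Leaving out 1 array moved the count of calls by more than 1.5 times in 6 cases, to 654 without KO array a, 782 without KO array 2, 960 without KO array 1, 983 without control array a, 998 without control array 2 and 2788 without KO array b. Correcting the background by normexp instead, which adds an offset of 50 to each signal, gave 1864 calls, with smaller changes for dim genes named below.

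**Figure D1:**
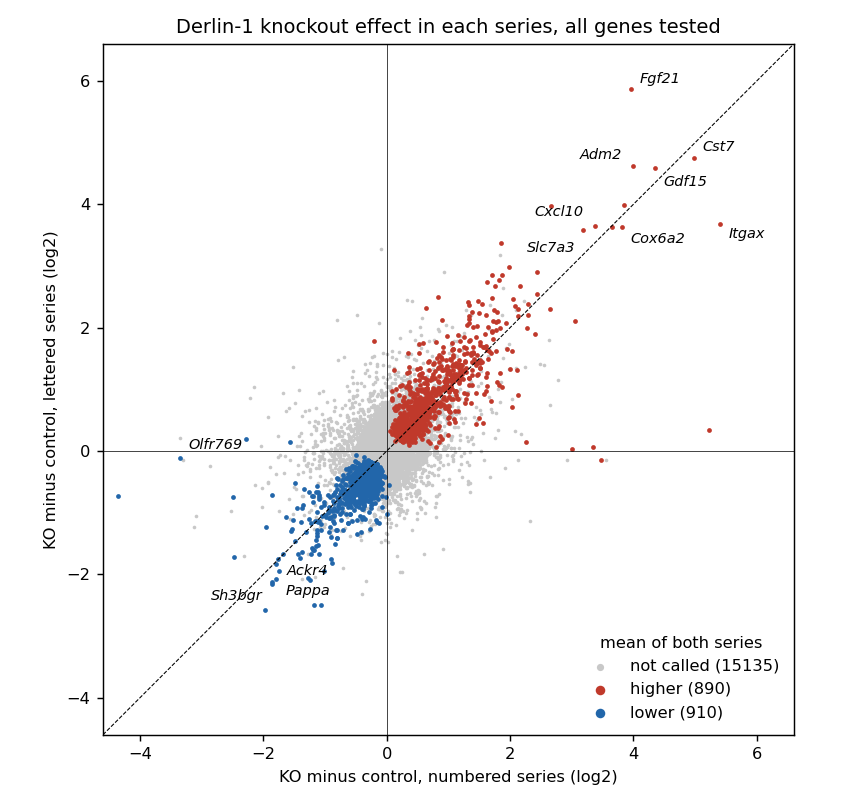
KO minus control on the log2 scale for each of the 16935 genes, numbered series on the x axis and lettered series on the y axis, with the 1800 called genes in colour and the dashed line at equal effects. Gdf15 and Cox6a2 lie near that line far above 0, Sh3bgr and Ackr4 below 0 on both axes, and Olfr769 is low in the numbered series alone.

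Both series contributed to these calls in the same direction. Of the 1800 genes 1794 had the same sign in both, although a called mean fixes part of that agreement. The effect was larger in the lettered series for 1273 of them, with medians of 0.67 against 0.55 among the rises and -0.49 against -0.34 among the falls. At an unadjusted p under 0.05, 4517 of the 16935 genes passed in the mean of both series (26.7%). Tested alone, the numbered series gave 2 genes (0.0118% of those tested), Itgax and Olfr769, and the lettered series 599 (3.54%). Itgax was above background on no control array, so its p rests on dim control spots. The lettered count was 1 without KO array a, 0 without control array a (2307 at an unadjusted p under 0.05 in limma), 191 without control array b and 2115 without KO array b, and the numbered count was 29, 6, 13 and 8 without control arrays 1 and 2 and KO arrays 1 and 2 in turn. The difference between the series was itself called for 1 gene (0.0059%), Olfr769, with 629 at an unadjusted p under 0.05. Olfr769 was well above background on the 2 numbered controls alone, so the size of its difference rests on dim spots, and with normexp no gene was called (583 at an unadjusted p under 0.05). In limma the count was 1 to 6 without any 1 array other than KO array b and 32 without that array. The arrays labelled Derlin-1 KO 4PBA b and Derlin-2 KO vehicle 1, which are outside the comparison, entered only the shared estimate of spread, and without them the numbered series gave 452 genes, the lettered series 976 and their mean 2017. All 4 KO arrays lay above all 4 controls for 896 of 16877 genes read on every array (5.31%) and below them for 635 (3.76%), together 9.07%, and 980 of the 1800 called genes showed such a separation.

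Secreted stress hormones and regulators of the ISR were mostly higher in KO cerebellum. Of 17 measured members of this list 11 rose and none fell, with a median change of 1.06, and the count was 11 or 12 without any 1 of the 8 arrays. Gdf15, a hormone that acts on a brainstem receptor to lower food intake, had -3.98, -3.83, -3.82 and -4.63 on control arrays 1, 2, a and b and 0.67, 0.22, 0.30 and 0.42 on KO arrays 1, 2, a and b. The groups lay far apart, at a 22.1-fold difference (4.46, SE 0.74, adjusted p 0.00363). Fgf21, a metabolic hormone of the fibroblast growth factor family, was well above background on 1 of 4 control arrays and on 4 of 4 KO arrays, where it had -1.87, -2.0, -2.91 and -1.28. Its controls read -6.55, -5.25, -8.21 and -7.73, and its fitted change of 4.92 (SE 0.94, adjusted p 0.00637) rests on these mostly dim spots. Adm2, a peptide of the calcitonin family, was above background on no control array and on every KO array, and was at least 8.03-fold higher (adjusted p 0.00598). Its p rests on dim control spots, and with normexp its fitted change was smaller than this bound. With normexp the list median was 0.65 and Fgf21 had a change of 2.09, and with only probes well above background on all 8 arrays 9 of 15 members rose, at a median of 0.69.

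Regulators of the same response rose with these hormones. Eif4ebp1 encodes an inhibitor of cap-dependent translation and had -1.56, -1.85, -1.39 and -1.43 on the controls against 0.19, -0.19, 1.41 and 1.48 on the KO arrays, a rise of 2.28 (SE 0.33, adjusted p 0.00242). The groups did not overlap, and both lettered KO arrays exceeded both numbered ones. Cebpb, a bZIP transcription factor, rose by 1.63 (SE 0.25, adjusted p 0.0026) and Atf5, a relative of ATF4, by 1.31 (SE 0.21, adjusted p 0.00324). Cdkn1a, an inhibitor of the cell cycle, rose by 1.06, Nupr1 by 1.14, Sesn2, a brake on mTORC1, by 0.69, Vegfa by 0.60 and Cebpg by 0.56. Ddit4 with 0.27, Ndrg1 with 0.05 and Trp53inp1 with 0.21 were not called, nor was Stc2 with 1.21.

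Lists of amino acid uptake, amino acid synthesis and tRNA charging each held more rises than falls. In the transport list Slc7a3, a carrier of cationic amino acids, stood apart: its levels were -0.19, -0.47, -0.40 and -0.91 on the controls and 2.98, 2.72, 2.99 and 2.88 on the KO arrays, a 10.4-fold rise (3.38, SE 0.57, adjusted p 0.00378). The 4 KO values spanned less than the 4 control values. Slc7a1, the widely expressed cationic carrier, rose by 1.25 (SE 0.17, adjusted p 0.00228), and Slc7a5, the light chain of the large neutral amino acid exchanger, fell by 0.64 (SE 0.14, adjusted p 0.0105). In all 6 of 14 carriers rose and 1 fell, with a median of 0.28. The 6 were 3 without control array 2 or KO array 1 and 2 after median scaling, which put the list median at 0.15, and Slc7a5 was not called without KO array a (-0.54). Slc3a2, the heavy chain that pairs with Slc7a5, rose by 0.55 on its brighter probe and read -0.09 on its other probe, and its call was lost without KO array 1 (0.52) or control array 2 (0.48).

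Among enzymes of amino acid and one-carbon synthesis 8 of 17 rose and none fell, with a median of 0.50, and 6 to 9 were called without any 1 array and 5 after median scaling. The mitochondrial folate enzymes led. Mthfd2 had -1.5, -1.63, -2.16 and -1.92 on the controls and -0.02, -0.80, -0.66 and 0.36 on the KO arrays, a rise of 1.52 (SE 0.28, adjusted p 0.00563) without overlap. Aldh1l2 rose by 1.47 and Shmt2 by 1.36 (0.71 on its other probe), whereas their cytosolic counterparts Mthfd1 and Shmt1 had changes of -0.15 and -0.10 that were not called; the differences between these enzymes were not tested. Aldh18a1, which starts proline synthesis, rose by 0.90, the serine pathway enzymes Phgdh and Psph by 0.66 and 0.69, and Gpt2, the mitochondrial alanine transaminase, by 0.75. Asns, asparagine synthetase, rose by 0.80 (SE 0.19, adjusted p 0.0175) and was not called without KO array 1 (0.70) or control array b (0.73).

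Aminoacyl-tRNA synthetases attach amino acids to their tRNAs, and 10 of 19 cytosolic ones rose while none fell. Their median change was 0.46, and 7 to 10 were called without any 1 array. Cars, for cysteine, had 2.34, 2.25, 2.47 and 2.67 on the controls and 3.16, 2.82, 3.69 and 3.76 on the KO arrays, a rise of 0.93 (SE 0.17, adjusted p 0.00532). All 4 KO arrays lay above all 4 controls for 7 of the 19. Aars and Tars rose by 0.57 each, Lars by 0.56, Nars by 0.55, Yars and Sars by 0.52 each, Eprs by 0.48 and Gars by 0.46. Iars rose by 0.54 and was not called without KO array 1 (0.47), control array a (0.46) or control array 2 (0.48). The other 9 stayed between -0.03 and 0.29 and were not called: Dars, Farsa, Farsb, Hars, Kars, Qars, Rars, Vars and Wars. Median scaling gave 3 calls in place of 10, at a list median of 0.34.

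Promoters of these genes were searched for the C/EBP-ATF response element, the composite site through which ATF4 and its C/EBP partners bind DNA, spelled TGATGNAA on either strand in a window of 300 bases (250 before and 50 after the start site in the RefSeq table, GRCm38.p6). The windows below are shown because tRNA charging, asparagine synthesis, a hormone, a cell death gene and Slamf9 share the site. Bases are given 5′ to 3′ on the gene's strand, and capitals mark the element, which reads as its reverse complement where it lies on the opposite strand.
Aars, chr8:111033710-111033757, plus strand: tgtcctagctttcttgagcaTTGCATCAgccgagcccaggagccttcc
Tars, chr15:11399659-11399693, minus strand: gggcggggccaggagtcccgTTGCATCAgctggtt
Asns, chr6:7693210-7693252, minus strand: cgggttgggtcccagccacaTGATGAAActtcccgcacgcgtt
Fgf21, chr7:45615602-45615649, minus strand: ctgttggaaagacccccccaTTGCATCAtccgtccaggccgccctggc
Hrk, chr5:118169630-118169677, plus strand: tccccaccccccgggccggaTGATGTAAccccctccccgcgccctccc
Slamf9, chr1:172475260-172475307, plus strand: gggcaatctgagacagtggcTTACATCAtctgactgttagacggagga
The element was present in 410 of 13342 tested genes with a promoter in the table (3.1%). It was present in 43 of 689 genes called higher (6.2%), in 23 of 697 called lower (3.3%) and in 5 of the 7 called synthetases that had a promoter in the table (71.4%), and in 5 of 12 synthetases in all. Of the called genes with a promoter in the other lists, 0 of 3 transporters, 1 of 7 synthesis genes and 2 of 10 stress hormone and ISR genes held it. These shares describe letters in a window and were not tested.

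Of the ER genes themselves, 23 of 26 members of the unfolded protein response list rose, with a median of 0.89, and without any 1 array the count was 21 to 23. ER-associated degradation, the pathway to which Derlin-1 belongs, had a median of 0.04, with 5 of 25 members higher and 2 lower; scaling by the median turned the list median to -0.08. The 5 were 2 without control array 1, a or b or KO array 2 or a, 1 without control array 2 or KO array 1, and 1 after median scaling, and the 2 lower ones, Vcp and Rhbdd1, were 1 without control array 2 or a or KO array 1, 2 or a. The third Derlin gene, Derl3, carried the largest change of that pathway. It had -2.87, -2.29, -2.01 and -1.69 on the controls and -0.32, -0.30, -0.09 and 0.37 on the KO arrays, without overlap (2.13, SE 0.39, adjusted p 0.00557). Vcp, the ATPase that extracts substrates from the membrane, fell by 0.39 on its brighter probe (SE 0.07, adjusted p 0.00637), and its other probe read 0.09, and the mean of both was not called (-0.15). Syvn1, the ubiquitin ligase HRD1, rose by 0.34 (SE 0.08, adjusted p 0.0163), and was not called without KO array 1 (0.32), control array a (0.29) or control array 2 (0.33). The ubiquitin ligase Rnf5 with -0.09 and the lectins Os9 with -0.01 and Erlec1 with 0.08 were not called.

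The ER stress element, a CCAAT box followed after 9 bases by CCACG and bound by NF-Y with ATF6 or XBP1, is shown for these 2 degradation genes, in the reverse orientation for Derl3 and the forward one for Syvn1.
Derl3, chr10:75893222-75893280, plus strand: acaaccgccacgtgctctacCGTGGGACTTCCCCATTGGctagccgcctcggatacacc
Syvn1, chr19:6046512-6046570, plus strand: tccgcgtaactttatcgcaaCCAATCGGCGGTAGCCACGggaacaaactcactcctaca
This long element (CCAAT and CCACG with any 9 bases between them, both strands) was present in 20 of the 13342 genes with a promoter (0.1%). It was found in 12 of 689 genes called higher (1.7%), in 0 of 697 called lower and in 7 of 20 called members of the unfolded protein response list (35.0%). The XBP1 unfolded protein response element, searched as TGACGTGG on both strands, was in 132 of the 13342 genes (1.0%), in 11 of 689 called higher (1.6%), in 4 of 697 called lower (0.6%) and in 0 of the 20 called members of that list. Among genes that rose at least 2-fold the XBP1 element was in 1 of 180 (0.6%).

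**Figure D2:**
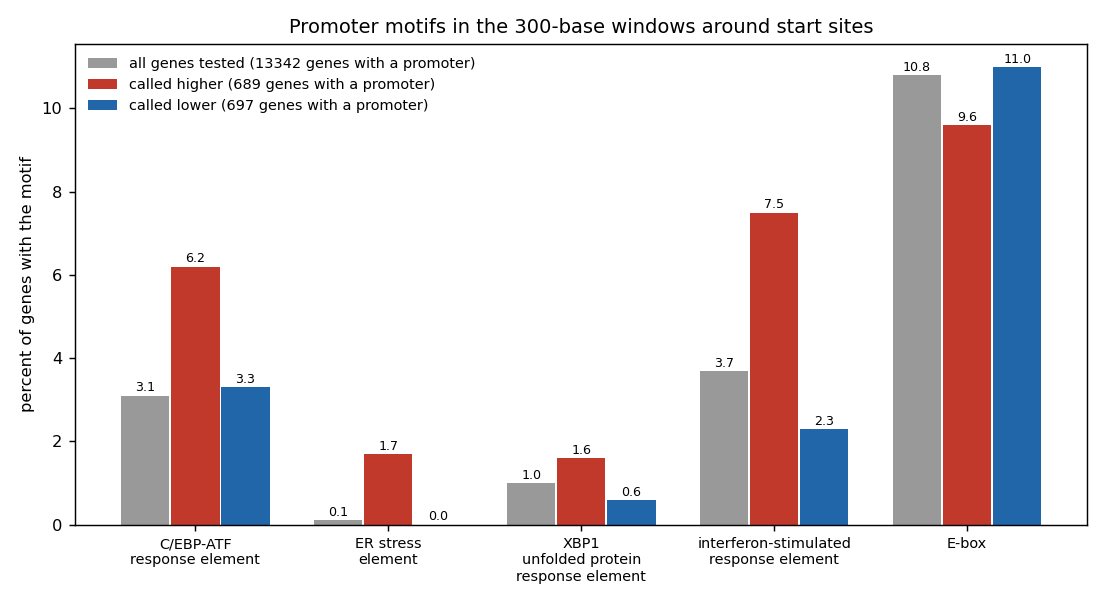
Percent of genes whose promoter window of 300 bases holds each motif, for all tested genes (13342), genes called higher (689) and genes called lower (697). The C/EBP-ATF element, the ER stress element, the interferon-stimulated response element and, at 1.6% against 1.0%, the XBP1 element had higher shares among genes called higher than among all, and the E-box CACGTG, at 9.6% against 10.8% of all, was not.

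Most measured genes of activated microglia rose. Here and for each cell type below, more cells of a type and more RNA per cell cannot be told apart in RNA of whole tissue. Among 23 measured genes of activated microglia 17 rose and none fell, with a median of 1.21. Trem2, a lipid-sensing receptor, had -0.10, -0.11, 0.28 and -0.15 on the controls and 1.63, 1.60, 2.09 and 1.68 on the KO arrays, a rise of 1.77 (SE 0.28, adjusted p 0.00294) without overlap. Its signalling partner Tyrobp rose by 1.5, the surface glycoprotein gene Cd52 by 1.92 (SE 0.30, adjusted p 0.00283) and Ctss, a lysosomal protease, by 1.41 (SE 0.23, adjusted p 0.00341). Cst7, which encodes a cystatin, and Itgax, the integrin CD11c, were above background on no control array and on all 4 KO arrays, and were at least 15.3-fold (adjusted p 0.0042) and at least 9.95-fold higher (adjusted p 0.00203). Both p-values rest on dim control spots, and with normexp both fitted changes were smaller than these bounds. Slamf9, an immune receptor of the SLAM family that is on no list, rose from -4.27, -4.21, -3.74 and -4.70 on the controls to -2.13, -2.11, -1.79 and -2.29 on the KO arrays (2.15, SE 0.34, adjusted p 0.00313). The count of 17 fell to 11 without control array 1, KO array 2 or KO array a. With normexp Slamf9 was 1.32.

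Genes of resting microglia moved in both directions. Of 15 measured 7 rose and 2 fell, with a median of 0.48, and 5 to 7 were called higher without any 1 array and 4 after median scaling, with a list median of 0.26 under normexp. Aif1, the actin-binding protein IBA1, rose by 1.49 (SE 0.23, adjusted p 0.00274), Fcrls by 1.29 and Cx3cr1, the receptor for the neuronal chemokine Cx3cl1, by 1.04. Csf1r, the receptor on which microglial survival depends, rose by 0.69 on its brightest probe, while its other probe read 0.07. It was not called without KO array a (0.66) or after median scaling (0.56), and the mean of its probes was 0.38. The receptor P2ry12, lost in many activated states, had -1.5, -1.52, -1.63 and -1.89 on the controls and -1.26, -1.21, -1.43 and -1.69 on the KO arrays, and Tmem119 had -1.70, -1.70, -1.01 and -1.18 against -1.45, -1.40, -0.79 and -0.81. The KO mean was above the control mean of each series for both, with P2ry12 on KO array b below control array a, and neither was called (0.24, adjusted p 0.471, and 0.29, adjusted p 0.0798). Olfml3 fell by 0.61 and the fructose carrier gene Slc2a5 by 0.64. Of these 2 falls 0 were called without control array 2 or KO array 2 or a, and 1 without control array a or b or KO array 1. The blood cell and lymphocyte list held no call among 12 genes, at a median of -0.07.

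Of 15 chemokines 9 rose and none fell, with a median of 1.16, and 8 to 11 were called without any 1 array. Cxcl10, which attracts T cells and is induced by interferon, had -4.78, -4.18, -3.78 and -5.13 on the controls and -1.09, -1.13, -0.25 and -1.37 on the KO arrays, an 11.4-fold rise (3.51, SE 0.65, adjusted p 0.00553). KO array a was the highest and no KO array reached a control. Ccl3 was above background on no control and on all 4 KO arrays, at least 12.3-fold higher (adjusted p 0.00203). Its p rests on dim control spots, and with normexp its fitted change was smaller than this bound. The related monocyte attractants Ccl4, Ccl12, Ccl5 and Ccl2 rose by 2.49, 2.25, 2.22 and 1.93, with KO arrays above every control for each. The neuronal chemokine Cx3cl1 with -0.28 and Cxcl12 with -0.04 were not called. With normexp the list median was 0.59, and Ccl4 was 1.14, Ccl12 1.48, Ccl5 1.40 and Ccl2 1.03. The list median was 0.75 in the numbered series and 1.58 in the lettered one, a difference that was not tested.

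Complement is a cascade of plasma and tissue proteins that tags membranes for removal, and 7 of 17 of its genes rose while none fell, with 6 to 8 called without any 1 array. The list median of 0.27 was 0.42 without KO array 1, 0.18 without KO array 2, 0.48 without KO array b, 0.15 after median scaling and 0.72 with the mean of a gene's probes. C4b had 0.06, 0.02, 0.26 and 0.27 on the controls and 2.04, 2.20, 2.94 and 2.30 on the KO arrays, a 4.65-fold rise (2.22, SE 0.32, adjusted p 0.00242), and its other kept probe read 2.21. The separate probe of its near-identical neighbour C4a rose by 1.91, and whether the probes of these genes bind both transcripts was not determined. The 3 chains of C1q, which start the classical pathway and in brain come mostly from microglia, rose together, C1qb by 1.44 and C1qa and C1qc by 1.43 each. The receptor gene C3ar1 rose by 1.25 and was above background on 3 of 4 controls. C3 with 0.25 and the regulators Cd55 with -0.07 and Cd59a with -0.18 were not called. With normexp C3ar1 was 0.42.

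Interferon-stimulated genes formed 1 of the largest groups of calls, 21 higher of 26 measured and none lower, with a median of 1.08. Irf7, a transcription factor that amplifies interferon production, had -0.39, -0.01, -0.21 and -0.40 on the controls and 1.57, 1.32, 2.22 and 1.17 on the KO arrays, a rise of 1.83 (SE 0.32, adjusted p 0.00475). KO array a was the highest, and the groups did not overlap. Usp18, which limits the interferon receptor, rose by 1.95 (SE 0.40, adjusted p 0.0084), Ifi27l2a by 1.44 and Isg15 by 1.13. Oas1a, a sensor of double-stranded RNA, rose by 1.45 and Ifit3 by 1.66, and neither was called without KO array a (1.32 and 1.28). Stat2 with -0.03, Rsad2 with 1.14 and Ifih1 with 0.66 were not called. The list median on single KO arrays, relative to the control mean of the series, was 0.98 and 0.89 on arrays 1 and 2, 1.51 on array a and 0.66 on array b. The count of 21 was 4 without KO array a, 10 without KO array 1, 11 without KO array 2, 12 without control array 1 or b, 13 without control array a and 14 without control array 2, and it was 23 without KO array b.

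The interferon-stimulated response element, bound by the ISGF3 complex and IRF factors, was searched as a pair of GAAA with any 2 bases between them, on both strands. Windows of 6 genes are shown because a chemokine, antiviral genes, an antigen presentation gene and a microglial protease that rose share it. Capitals mark the element, read as a pair of TTTC in the Ifit genes, where it lies on the opposite strand.
Cxcl10, chr5:92349073-92349122, minus strand: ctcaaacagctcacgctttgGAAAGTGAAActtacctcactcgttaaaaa
Ifit1, chr19:34640765-34640814, plus strand: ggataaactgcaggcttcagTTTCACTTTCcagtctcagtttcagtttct
Ifit3, chr19:34583353-34583402, plus strand: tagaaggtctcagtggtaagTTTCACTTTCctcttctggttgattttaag
Oas1a, chr5:120907526-120907565, minus strand: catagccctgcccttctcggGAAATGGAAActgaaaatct
B2m, chr2:122147528-122147577, plus strand: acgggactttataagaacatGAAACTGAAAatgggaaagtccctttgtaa
Ctss, chr3:95526745-95526785, plus strand: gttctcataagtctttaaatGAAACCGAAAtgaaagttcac
The element was present in 500 of 13342 genes (3.7%), in 52 of 689 called higher (7.5%) and in 16 of 697 called lower (2.3%). Among genes that rose at least 2-fold it was present in 22 of 180 (12.2%), and among called interferon-stimulated genes in 9 of 17 (52.9%), against 12 of 20 over all measured members of that list. Ifit1 and Ifit3 hold a second copy within the same 300 bases. Ifit3, Oas1a and the class I genes have close paralogs, and how far their probes tell these apart was not determined.

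Of antigen presentation genes 11 of 17 rose and none fell, with a median of 0.53. Cd74, the invariant chain of class II molecules, had -3.50, -3.02, -2.51 and -2.55 on the controls and -2.30, -2.20, -1.69 and -2.08 on the KO arrays, a rise of 0.83 (SE 0.15, adjusted p 0.00551) without overlap. Nlrc5, the transactivator of class I genes, was above background on 2 of 4 controls and on all KO arrays, with a fitted rise of 2.02 (SE 0.40, adjusted p 0.00752). Psmb8, a subunit of the immunoproteasome, rose by 1.14 and was not called without KO array a (0.94). B2m, the class I light chain, rose by 0.56 and was not called without KO arrays a (0.54) or 1 (0.52) or control arrays b (0.48) or 2 (0.55). The 11 calls were 2 without KO array a, 4 without KO array 1 or 2 or control array b, 5 without control array 2 and 6 without control array 1, and they were 4 after median scaling. With normexp Nlrc5 was 0.71.

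**Figure D3:**
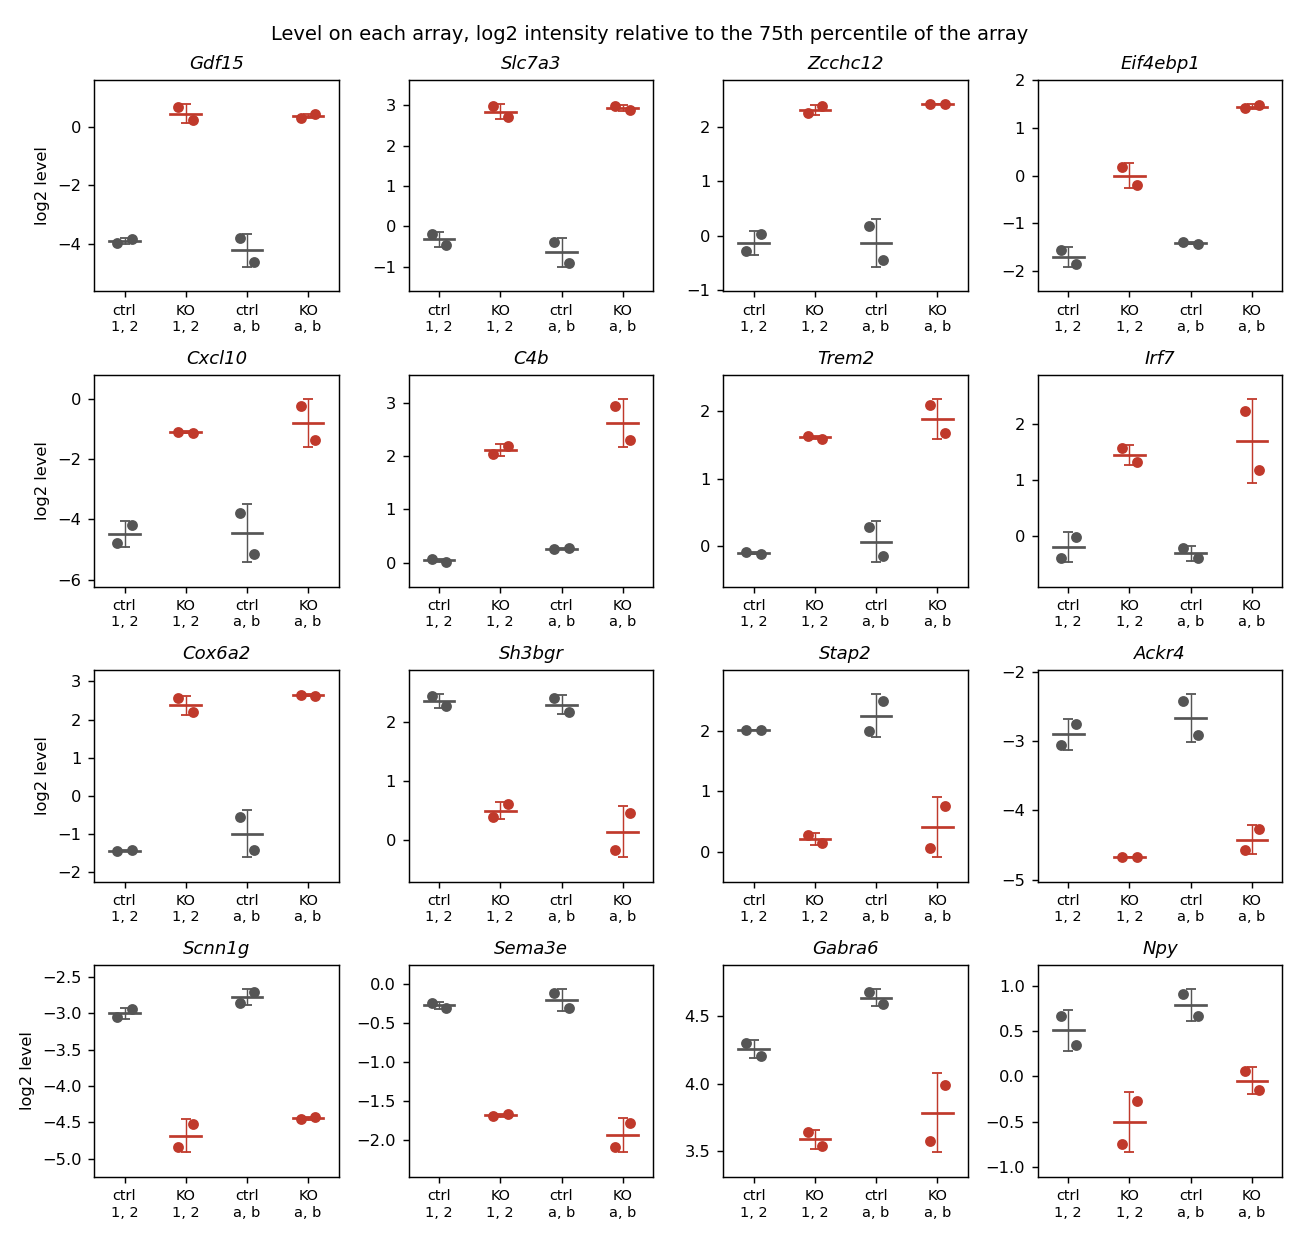
Level of 16 genes on each array, as log2 intensity relative to the 75th percentile of the array, with controls in grey and KO arrays in red, lines at the means and bars of 1 SD (n = 2 arrays per group). In each of the 16 panels the KO arrays of a series lie on the same side of its controls, above them for Gdf15 and Trem2 and below them for Sh3bgr and Npy.

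Among reactive astrocyte genes 6 of 19 rose and 1 fell, with a median of 0.44. Gfap, the astrocyte intermediate filament, had 1.48, 1.84, 2.11 and 2.05 on the controls and 2.83, 2.87, 3.47 and 3.28 on the KO arrays, a 2.37-fold rise (1.25, SE 0.18, adjusted p 0.00242). All KO arrays lay above all controls. The protease inhibitor Serpina3n, above background on 3 of 4 controls, rose by 2.34 (SE 0.34, adjusted p 0.00242), Aspg by 1.1, the lipopolysaccharide receptor Cd14 by 1.0, which microglia also express, and Timp1 by 0.99. The 1 fall was Tnc, a matrix protein, by 0.95, which lost its call in 7 of the 8 fits without 1 array. Vim with 0.25 and Lcn2 with 1.09 were not called. Genes of astrocytes and Bergmann glia in general held 1 call in 20, at a median of 0.07 that was -0.06 after median scaling. With normexp Serpina3n was 1.20.

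Granule neurons, the most numerous cells of the cerebellum, had 5 of 19 genes lower and none higher, with a median of -0.22. Gabra6, a GABA receptor subunit of these cells, had 4.31, 4.21, 4.68 and 4.59 on the controls and 3.64, 3.54, 3.58 and 3.99 on the KO arrays, a fall of 0.76 on the log2 scale (SE 0.14, adjusted p 0.00589) without overlap. Neurod1, a transcription factor of granule cell differentiation, had 6.04, 6.10, 5.14 and 5.06 against 5.61, 5.39, 4.20 and 4.44 and fell by 0.68 (SE 0.11, adjusted p 0.00378). Its KO arrays lay below the controls within each series but not across them. The list median was -0.20, -0.20, -0.22 and -0.20 on KO arrays 1, 2, a and b. Only Gabra6 and Neurod1 kept their call without any 1 of the 8 arrays, and 2 or 3 of the 5 genes were called in those fits: 2 without control arrays 1 or a or KO arrays 1, 2 or a, and 3 without control arrays 2 or b or KO array b, while quantile normalization gave 3, at a list median of -0.13, and median scaling put the list median at -0.35. The vesicular glutamate transporter gene Slc17a7, which is on the list, had 1.29, 1.26, 1.77 and 1.78 on the controls and 1.36, 1.23, 1.54 and 1.75 on the KO arrays and was not called (-0.05).

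Inhibitory interneurons of the molecular and granular layers had 6 of 12 genes lower and 1 higher, a median of -0.18, and 4 to 6 lower without any 1 array. Npy, a neuropeptide, had 0.67, 0.35, 0.91 and 0.66 on the controls and -0.74, -0.27, 0.06 and -0.15 on the KO arrays, a fall of 0.92 (SE 0.19, adjusted p 0.0083) without overlap. Sorcs3, a sorting receptor, fell by 0.72 (SE 0.13, adjusted p 0.0058), Kit, a receptor kinase of molecular layer interneurons, by 0.54 (SE 0.09, adjusted p 0.00341) and Prkcd by 0.45 (SE 0.08, adjusted p 0.0039). Gad1, an enzyme of GABA synthesis, fell by 0.22, and Gad2 with 0.11 was not called. The list median was between -0.27 and -0.10 over the fits without 1 array. The 1 rise was Lgi2, a secreted synaptic protein, by 0.43, which was called without control array 1 or KO array b but not in the other 6 fits without 1 array, nor after median scaling (0.30).

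Purkinje cell genes held 1 call in 19, at a median of -0.08 that was 0.07 after quantile normalization. The call was Skor2, a transcriptional corepressor, at 0.30 (adjusted p 0.04996), and the call was lost in each of the 8 fits without 1 array. Pcp2 had 7.88, 7.97, 7.92 and 7.70 on the controls and 7.94, 7.99, 7.56 and 7.66 on the KO arrays, and Calb1, a calcium buffer, 6.19, 6.16, 6.29 and 6.14 against 6.38, 6.30, 6.16 and 6.15. The groups overlapped for both, with changes of -0.08 (SE 0.09, adjusted p 0.62) and 0.05 (SE 0.07, adjusted p 0.646). Unipolar brush and nuclear neurons, endothelium with mural cells, and choroid plexus with ependyma held no call among 9, 17 and 12 genes. Oligodendrocyte and myelin genes held none among 20, at a median of -0.14, and 4 were lower without control array b and 3 without KO array b. Ttr, the transthyretin of choroid plexus, had 6.32, 7.09, 6.89 and 3.04 on the controls and 3.36, 7.80, 6.70 and 0.49 on the KO arrays. Choroid plexus genes varied between arrays without following genotype: the list median relative to the control mean of the series was -1.89 and 1.0 on KO arrays 1 and 2 and 0.74 and -1.14 on KO arrays a and b, and 1.30 and -1.30 on control arrays a and b. Their part in other results was not tested.

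**Figure D4:**
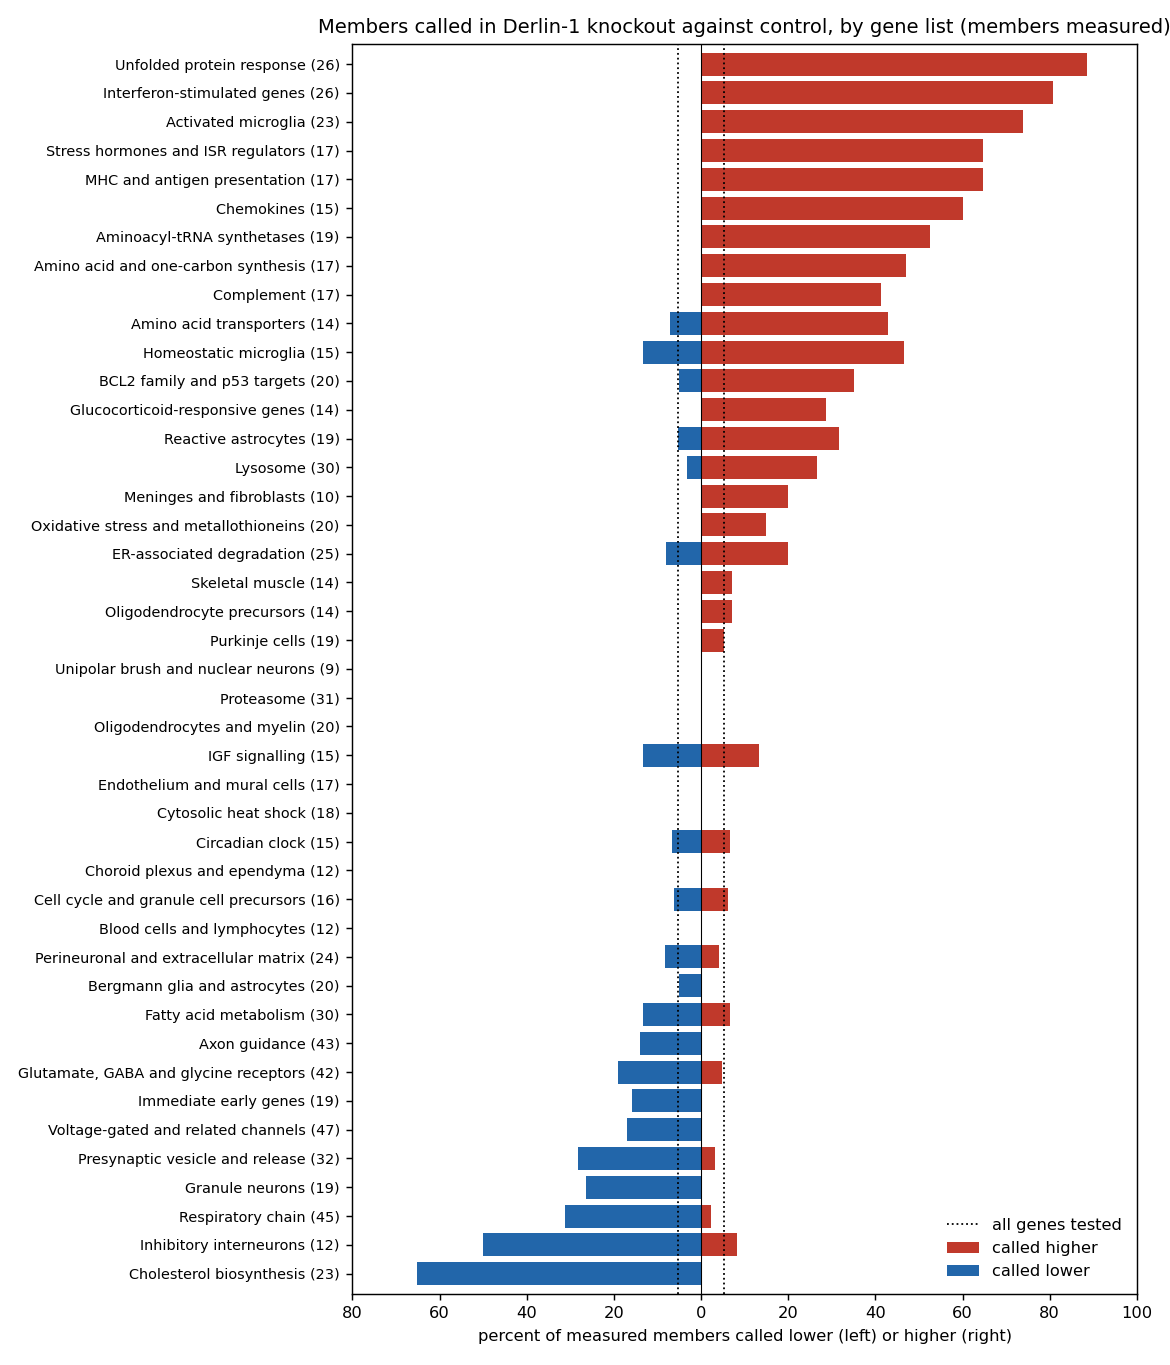
Percent of the measured members of each of the 43 gene lists that were called lower (left bars) or higher (right bars) in KO cerebellum, with dotted lines at the shares among all genes tested, 5.26% higher and 5.37% lower. The unfolded protein response, interferon and activated microglia lists lead to the right, and the cholesterol and interneuron lists to the left.

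Of 42 glutamate, GABA and glycine receptor genes 8 fell and 2, Glra2 and Gabrb1, rose, with a median of -0.10. Grm8, a presynaptic glutamate receptor, had -1.49, -1.53, -1.26 and -1.23 on the controls and -2.49, -2.41, -2.26 and -2.06 on the KO arrays, a fall of 0.93 (SE 0.12, adjusted p 0.00203), with the groups far apart relative to their spread. The astrocytic and neuronal receptor gene Grm3 fell by 0.46 and the kainate receptor subunit Grik3 by 0.43. The AMPA receptor subunit Gria4, abundant in Bergmann glia and granule neurons, fell by 0.52 and was not called without KO array a (-0.43). The count of 8, which includes Gabra6, was 4 without KO array a and 5 without KO array 1, KO array 2, control array 1 or control array a, and 5 after quantile normalization. The 2 rises were 0 without KO array 1 or 2 or control array a, 1 without control array 1 or 2 or KO array a, and 0 after median scaling.

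Of 47 channel genes 8 fell and none rose, with a median of -0.13 that was between -0.13 and -0.04 over the fits without 1 array. Kcnc1, a fast potassium channel, fell by 0.67 on its brightest probe while its other probes read -0.39 and 0.43, and was not called without KO array a (-0.58) or 2 (-0.66), nor as the mean of its probes (-0.21). The 8 calls were 3 without KO array 2 or a, 4 without KO array 1 or control array 1, and 5 without control array a or b. Of 32 presynaptic genes 9 fell and 1 rose: Syt2, a calcium sensor of fast release, fell by 0.61 (SE 0.11, adjusted p 0.00492; -0.39 on its other probe), and Unc13b, a vesicle priming factor, rose by 0.55 (SE 0.10, adjusted p 0.00587). The 9 lower genes were 3 without KO array a, 4 without KO array 1, 5 without KO array 2 or control array 2, and 2 after quantile normalization.

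Axon guidance genes held 6 falls and no rise among 43, at a median of -0.02, and 4 to 8 falls without any 1 array. Sema3e, a secreted repellent, had -0.24, -0.31, -0.11 and -0.30 on the controls and -1.70, -1.67, -2.10 and -1.79 on the KO arrays, a fall of 1.57 (SE 0.21, adjusted p 0.00203). The KO arrays lay more than 1 log2 unit below every control. The receptor kinase Ephb2 fell by 0.77 (SE 0.11, adjusted p 0.00242; -0.51 as the mean of its probes), the guidance ligand Ntn1 by 0.74 (SE 0.11, adjusted p 0.00242) and the semaphorin receptor Plxna4 by 0.65 (SE 0.10, adjusted p 0.00324). Plxna1 with 0.15, Nrp1 with 0.04, Dcc with 0.05 and Robo1 with 0.04 were not called. Among 19 immediate early genes, which neurons induce on activity, 3 fell and none rose: Jun by 0.55 (SE 0.08, adjusted p 0.00242) with no overlap between KO and control arrays, Dusp1 by 1.35 and Btg2 by 0.53. The 3 were 1 without control array 1 or a or KO array 1, and 8 without KO array b.

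The largest falls lay mostly outside the gene lists. Sh3bgr, which encodes a small thioredoxin-like protein, had 2.44, 2.27, 2.40 and 2.17 on the controls and 0.39, 0.60, -0.17 and 0.45 on the KO arrays, to 0.249 of the control level (-2.0, SE 0.27, adjusted p 0.00203). Stap2, a signalling adaptor, had 2.02, 2.02, 1.99 and 2.49 against 0.29, 0.15, 0.06 and 0.76 (-1.82, SE 0.31, adjusted p 0.00443), again without overlap. Ackr4, a receptor that removes chemokines, fell by 1.76 (SE 0.24, adjusted p 0.00203), and Scnn1g, a subunit of the epithelial sodium channel, by 1.67 (SE 0.24, adjusted p 0.00235). Cabp2, a calmodulin-like protein, fell by 1.67 and the transcription factor gene Scx by 1.40. Chst9, a sulfotransferase, was above background on all 4 controls and on no KO array, at least 4.10-fold lower (adjusted p 0.00267). Its p rests on dim KO spots, and with normexp its fitted change was smaller than this bound. With normexp the changes were -0.98 for Ackr4 and -0.86 for Scnn1g.

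The noncoding transcript A230028O05Rik fell by 1.55 (SE 0.25, adjusted p 0.00378) at very different levels in the 2 series. Its controls had -0.17 and -0.09 in the numbered and -3.49 and -3.99 in the lettered series, and the KO arrays -1.54 and -1.58, and -5.43 and -5.40. The fall was seen within each series, while the series themselves lay further apart than the genotypes. Pappa, a protease that frees insulin-like growth factor, fell by 1.93 (SE 0.45, adjusted p 0.0157) and was not called without KO array a (-1.72), KO array 1 (-1.85) or control array a (-1.84). Chrnb4, a nicotinic receptor subunit, fell by 1.42 and was not called without KO arrays a (-1.37) or 1 (-1.37) or control array 2 (-1.29), nor in the authors' series values (-1.42). Cd70, a ligand of the tumour necrosis factor family, fell by 1.40 and was not called without KO array a (-1.05) or control array a (-1.23). Gcnt1, a glycosyltransferase, fell by 1.39 and lost its call in 5 such fits, without KO arrays a and 2 and control arrays a, b and 1, with values from -1.01 to -1.41. With normexp the changes were -0.96 for A230028O05Rik and -0.79 for Chrnb4.

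Rises outside the stress and immune lists included Cox6a2, Fut1 and Zcchc12. Cox6a2 encodes the isoform of a cytochrome c oxidase subunit found in striated muscle and in some neurons. It had -1.44, -1.43, -0.55 and -1.43 on the controls and 2.56, 2.19, 2.65 and 2.62 on the KO arrays, a 13.2-fold rise (3.72, SE 0.53, adjusted p 0.00242). The other 13 measured genes of the skeletal muscle list were not called. They had changes from -0.16 to 1.70, and the list of 14 had a median of 0.25 (0.12 after median scaling or with normexp and 0.15 after quantile normalization) with all 4 KO arrays above all 4 controls for 2 genes. Fut1, a fucosyltransferase, had -5.76, -5.51, -5.95 and -5.86 against -3.14, -3.25, -3.39 and -2.63 (2.67, SE 0.51, adjusted p 0.00661). Zcchc12, a zinc knuckle coactivator, had -0.29, 0.03, 0.17 and -0.45 against 2.25, 2.38, 2.42 and 2.42 (2.50, SE 0.46, adjusted p 0.00552). The 4 KO arrays of Zcchc12 lay close together and far above its controls. The transcript 9330179D12Rik rose by 2.42. Soat2, which esterifies cholesterol, and the reductase gene Cyb5r2 were above background on no control array and were at least 3.59-fold (adjusted p 0.00907) and at least 2.71-fold higher (adjusted p 0.00305). Both p-values rest on dim control spots, and with normexp both fitted changes were smaller than these bounds. On the oxidative stress list, Gpx3, a secreted glutathione peroxidase, rose by 2.22. It was not called without KO array a (1.70), KO array 2 (2.01), control array a (2.21) or control array 2 (2.15). With normexp Fut1 was 1.26.

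Of 45 measured respiratory chain subunits 14 fell and 1, Cox6a2, rose, with 43 below 0 and a median of -0.24. Cox8a, a subunit of complex IV, had 7.68, 7.68, 7.66 and 7.46 on the controls and 7.37, 7.38, 6.92 and 7.13 on the KO arrays and fell by 0.42 (SE 0.09, adjusted p 0.0115), but was not called without KO array a (-0.37). Cox6b1 fell by 0.42 and was not called without KO array a (-0.36) or control array a (-0.34). The list median was -0.13 on KO arrays 1 and 2, -0.44 on KO array a and -0.25 on KO array b. The count of 14 rested on single arrays: 0 without KO array a, 1 without control array a, 2 without KO array 2, 3 without KO array 1, 4 without control array 2, 5 without control array 1 and 21 without KO array b. It was also 6 after quantile normalization (list median -0.12), 3 after median scaling (-0.36) and 0 in a fit of the 8 arrays alone with 4 group means, or 1 with slide plus genotype. The cause of these differences was not tested.

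Among the 10 called genes with the brightest control signal all fell, by 0.26 to 0.56. After quantile normalization 6 of the 10 were not called: Aldoa (-0.20), Mdh2 (-0.16), Dnm1 (-0.15), Zic1 (-0.13), Gapdh (-0.11) and Atp5a1 (-0.10). Mdh2 and Atp5a1 were not called after median scaling either (-0.44 and -0.38), and each of the 6 lost its call in 4 to 8 of the fits without 1 array. Nrep, a neuronal protein of regeneration, had 7.56, 7.64, 7.10 and 7.07 on the controls and 7.22, 7.20, 6.15 and 6.54 on the KO arrays and fell by 0.56 (SE 0.11, adjusted p 0.00719), with KO below control within each series. Tuba1b, a tubulin of growing neurites, fell by 0.56 and was not called without KO array a (-0.52). The glycolytic genes Aldoa and Gapdh fell by 0.37 and 0.29. Neither was called without KO array a (-0.33 and -0.25), control array a (-0.34 and -0.26) or control array 2 (-0.32 and -0.25), and Aldoa also not without KO array 2 (-0.37) and Gapdh not without KO array 1 (-0.26).

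The list of BCL2 family genes, caspases and p53 targets held 7 rises and 1 fall among 20, at a median of 0.10 that was -0.03 after median scaling. Hrk, a neuronal BH3-only protein, had 0.10, -0.13, -0.26 and -0.60 on the controls and 1.13, 1.11, 1.30 and 0.58 on the KO arrays, a rise of 1.25 (SE 0.23, adjusted p 0.0058) without overlap. Pmaip1, the BH3-only protein NOXA, rose by 1.05 (SE 0.19, adjusted p 0.00514). The antiapoptotic genes Bcl2l1 with -0.19 and Mcl1 with 0.03 and the p53 targets Mdm2 with 0.14 and Ccng1 with -0.10 were not called. Bmf, another BH3-only protein, fell by 0.47. The 7 rises were 2 without KO array 2 or a, 3 without KO array 1 or control array 1, 2 or a, and 2 after median scaling. With normexp Pmaip1 was 0.68.

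Lysosomal genes held 8 rises and 1 fall among 30, among them Ctss and Laptm5, a protein of haematopoietic lysosomes, with 1.16, both of which microglia express. The part of microglial RNA in this count was not tested, and the 1 fall was Asah1, by 0.25. That fall was 0 without control array 2 or a or KO array 2, a or b and after median scaling or quantile normalization. The 8 rises were 4 without control array 1 or b or KO array 2 or a, 5 without control array 2 and 4 after median scaling. Proteasome and cytosolic heat shock genes held no call among 31 and 18, at medians of -0.09 and -0.14, and 2 proteasome and 6 heat shock genes were lower without KO array b and 1 proteasome gene without control array b. Glucocorticoid-responsive genes held 4 rises among 14, of which Cdkn1a alone stayed called without any 1 array; the count was 1 without control arrays 2 or a or KO arrays 2 or a. Fatty acid metabolism held 2 rises and 4 falls among 30, with Srebf1, a regulator of lipid synthesis, higher by 0.70 and Plin2, a lipid droplet protein, lower by 0.53 (-0.25 on its other probe). The 4 falls were 0 without KO array a, 1 without control array a and 2 without KO array 1, and the 2 rises were 0 without KO array a, 1 without control array 1 or KO array 2, 4 without KO array b and 0 after median scaling. Of 15 circadian clock genes Ciart, a repressor of the clock, rose by 1.36 on its brightest probe, while its other probe read 0.48 and it was not called in the fits of the 8 arrays alone. Clock fell by 0.23, a call that was lost in 7 of the 8 fits without 1 array. The growth factor Igf1, a product of microglia among other cells, rose by 0.82 (SE 0.17, adjusted p 0.0106), and Ccnd2, a cyclin of proliferating cells, by 1.11, which was not called without KO array a (1.12).

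Among 15 measured genes of insulin-like growth factor signalling 2 rose and 2 fell. Besides Igf1, its receptor Igf1r rose by 0.30, while Pappa, a protease that cleaves binding proteins of the growth factor, fell by 1.93 (SE 0.45, adjusted p 0.0157) and the binding protein Igfbp6 by 0.41. The rises were 1 without control array 2, a or b or KO array 2 or a and after median scaling, and the falls were 1 without control array a or KO array 1 or a. Of 20 genes of oxidative stress and metallothioneins 3 rose and none fell: the extracellular glutathione peroxidase Gpx3 by 2.22 (SE 0.55, adjusted p 0.0216), Txnip, an inhibitor of thioredoxin, by 1.12 and the haem oxygenase Hmox1 by 0.75. These 3 were 0 without control array 2 or KO array a and 1 without control array a or KO array 2. In the matrix list of 24 genes Timp1 rose by 0.99, and Tnc, the matrix protein tenascin C, fell by 0.95 and Spock3 by 0.47; the count of falls was 0 in 6 of the 8 fits without 1 array, 2 without control array b and 3 without KO array b. Of these 8 fits Tnc was called only in the one without KO array b, and Spock3 only in those without control array b or KO array b. Olig2, a transcription factor of the oligodendrocyte lineage, was the only called gene of 14 in the precursor list, with a rise of 0.41 that was not called without control array 1 or b or KO array 2 or a, nor after median scaling. Among 10 genes of meninges and fibroblasts Ogn rose by 0.50 and Col1a2 by 0.34, counts that were 1 without control array 2, 3 without KO array b and 0 without any other single array or after median scaling.

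**Figure D5:**
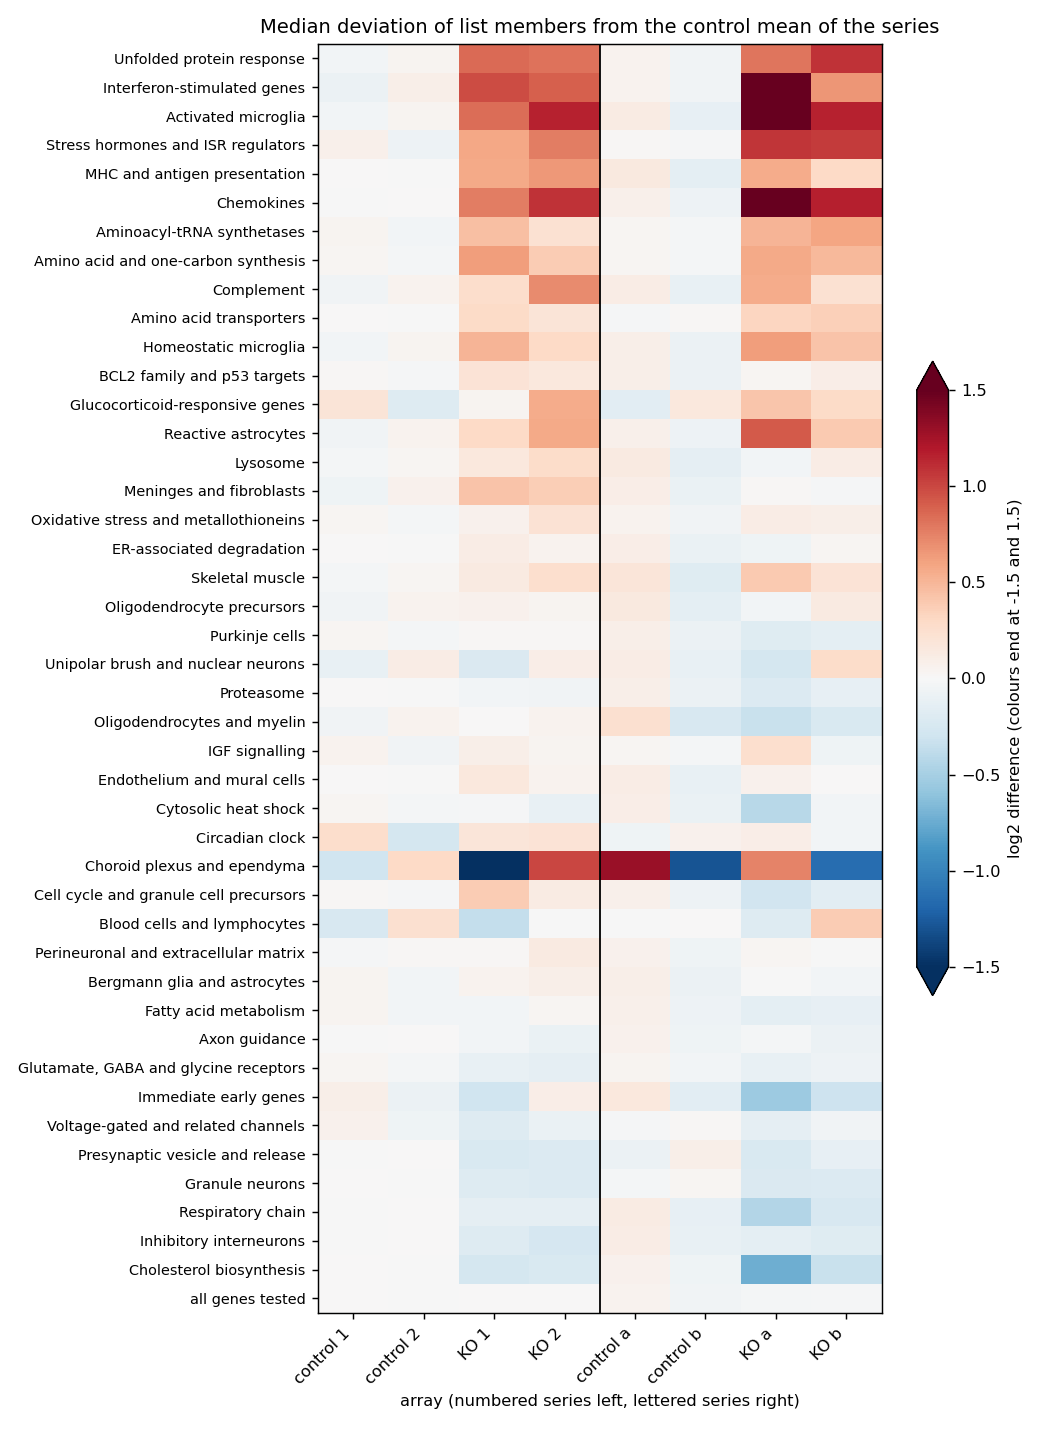
Median log2 deviation of list members from the control mean of the series, for each gene list (rows) and array (columns), with colours ending at -1.5 and 1.5. The unfolded protein response, stress hormone, microglia, chemokine and interferon lists are above 0 on all 4 KO arrays, with interferon genes highest on KO array a at 1.51 and lowest on KO array b at 0.66, while choroid plexus genes differ between arrays of the same group.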

How the data were processed

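Total RNA (Cy3-labelled, per the labels) was measured on Agilent single-colour arrays. The deposited linear intensity of each spot was the processed signal of Feature Extraction 10.7.1.1, per the file headers; the authors' series table, also intensity, served as an alternative. The files record no normalization between arrays.

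Control spots and spots with outlier flags (52 to 182 on the 8 arrays) were left out, log2 values of repeated spots were averaged, and the 75th percentile of each array was subtracted. Probes well above background on both arrays of at least 1 of the 12 groups were kept, 38115 of 56605, and 24784 of these had a symbol through their transcript accession in the RefSeq table (GRCm38.p6). A gene was read by its brightest kept probe. The headers name another build, so coordinates in the text belong to the RefSeq promoters alone.

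limma 3.58.1 in R 4.3.3 fitted 1 mean per group over all 24 arrays (12 residual degrees of freedom); the fit was also tested on simulated data. Tests were two-sided and adjusted over 16935 genes by the Benjamini-Hochberg method. The number of arrays limits precision: the median SE was 0.11 for the mean of both series and 0.15 for 1 series. Where no array of a genotype was well above background, a fold is a lower bound under the scanner software's background correction only, and the p rests on dim spots. The dim level was then set, array by array, to the dimmest probe still well above background or to the gene's own value if that was higher. The normexp alternative (offset 50) used the median spot signal.

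The members and the 43 gene lists were chosen with earlier results of these data known. Named genes were the 15 largest called rises and falls well above background on all 8 arrays outside the unfolded protein response and cholesterol lists, up to 6 called members of each list with the largest change and the defining markers of cell types, up to 8 genes by the difference between series, up to 8 bounded genes, the 10 brightest called genes, the Derlin genes, and 5 tested neighbours on each side of Derl1. Other list members named in the text were chosen after their values were seen. Promoter windows came from the RefSeq table, and no motif share was tested. Some genes that the naming rule chose are not reported here.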

Additional observations from a re-analysis of the deposited data

Results flagged for a closer look

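The effect of the knockout differed between the series for Olfr769, an olfactory receptor gene, by 3.24 on the log2 scale (adjusted p 0.000112, limma). Its levels were -4.74, -4.25, -7.99 and -8.15 on control arrays 1, 2, a and b and -7.90, -7.80, -8.26 and -8.10 on KO arrays 1, 2, a and b, and only the 2 numbered controls were high. It was well above background on 2 of the 8 arrays, the numbered controls, and entered the test through them, so the size and the p rest on dim spots, and with normexp the difference was not called.

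Probes without a gene symbol lie outside the comparisons of genes. Of 13326 such kept probes 436 were called in KO against control (3.3%), 158 higher and 278 lower, against 1502 of 24784 probes with a symbol (6.1%), adjusted over 38110 probes. Among those well above background on all 8 arrays were A_51_P246653 with a change of 3.08, A_55_P2549154 with 2.67, A_66_P119623 with -1.64 and A_52_P328350 with -1.45.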

How the results depend on the processing

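For the mean of both series, 1800 genes called became 726 with the 8 arrays alone and 4 group means, 1018 with slide plus genotype, 2 from the numbered series and 599 from the lettered series alone, and 654 to 2788 without 1 array. Quantile normalization gave 1558 (856 higher, 702 lower), median scaling 1279 (364 and 915), normexp background 1864, no filter on dim probes 1255, only probes above background on all 8 arrays 1843, the mean of a gene's probes 1543 and 1758 came from the authors' series values. The numbered series, with 2 genes, gave 17 with normexp, 1 with no filter, 452 without the arrays labelled Derlin-1 KO 4PBA b and Derlin-2 KO vehicle 1 (2017 for the mean of both series), 3 with quantile normalization and 6 to 29 without 1 array. The lettered series, with 599, gave 536 with quantile normalization, 843 with normexp, 223 with no filter, 976 without those 2 arrays, and 0 to 2115 without 1 array. The difference between series, with 1 gene, gave 0 in limma with normexp (583 at an unadjusted p under 0.05) and 1 to 32 without 1 array. Some of these fits hold fewer arrays, and the cause of these shifts was not tested.

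Samples shared a replicate number or letter but nothing says that a number marks a pair, and same-numbered deviations correlated at 0.185 for the numbered arrays and at 0.148 for the lettered ones, against -0.153 to 0.400 for other group pairs of these slides. With the number as a replicate block the mean of both series gave 2188 genes, the numbered series 88 and the lettered series 903.

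Of 194 called genes chosen by the naming rule, 94 kept their call in every alternative that used both series and 100 lost it in at least 1, and none of the 194 changed sign. Derl2, not called at 0.01, ranged from -0.12 to 0.13 over the fits without 1 array and was -0.12 after median scaling, -0.02, -0.04, -0.06 and -0.12 without control array 1, KO array 1, control array b and KO array b, and -0.13 in the lettered series. Dim signal limits Adm2, Cst7, Itgax and Ccl3, which were well above background on 0 of the 4 control arrays and have only bounds, and Fgf21, which was so on 1 of 4. After median scaling the list median of ER-associated degradation was -0.08, astrocytes -0.06, oligodendrocyte precursors -0.08, endothelium -0.05, oxidative stress -0.03, lysosome -0.03, circadian genes -0.11 and matrix -0.09, all above 0 when scaled by the 75th percentile, and after quantile normalization Purkinje cell genes were at 0.07 and fatty acid genes at 0.01, both below 0 with that scaling. With the 8 arrays alone and 4 group means, counts of 3 or more became smaller by over 1.5 times for cholesterol synthesis (15 to 3 lower), ER-associated degradation (5 to 1 higher), amino acid transporters (6 to 3), antigen presentation (11 to 5), lysosome (8 to 4), BCL2 family and p53 targets (7 to 2), glucocorticoid-responsive genes (4 to 1) and oxidative stress (3 to 0), and for falls of granule neurons (5 to 2), receptors (8 to 3), channels (8 to 3), release machinery (9 to 2), immediate early genes (3 to 1), the respiratory chain (14 to 0) and fatty acid metabolism (4 to 1). Of the genes named in the report, Rhbdd1, Slc3a2, Asns, Phgdh, Psph, Tars, Nars, Iars, Yars, Sars, Eprs, Gars, B2m, Hmox1, Srebf1, Igf1r, Spock3, Syvn1 and Skor2 were also not called after median scaling, and Vcp, Slc3a2, Skor2, Kcnc1, Plin2, Igf1r, Clock, Atp5a1 and Mtbp not as the mean of their probes. With no filter on dim probes Rhbdd1, Zic1, Skor2, Ogn, Clock, Spock3, Atp5a1 and Mdh2 were not called, and with the authors' series values Chrnb4 and Skor2. Both fits of the 8 arrays alone lost the calls of Gcnt1, Syvn1, Rhbdd1, Iars, Olig2, Zic1, Skor2, Ogn, Col1a2, Dusp1, Btg2, Txnip, Cox6b1, Srebf1, Plin2, Igfbp6, Igf1r, Ciart, Clock, Spock3, Aldoa, Gapdh, Atp5a1, Dnm1 and Mdh2. The fit with 4 group means also lost Gpx3, Cd70, Psmb8, Tnc, Lgi2, Glra2, Gria4, Grm3, Hmox1 and Cox8a, and the one with slide plus genotype Grik3 and Olfr769. With normexp, whose offset makes ratios of dim signals smaller, the fitted changes of Cst7, Itgax, Ccl3, Adm2, Chst9, Soat2 and Cyb5r2 were smaller than the bounds given for these genes.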
